A study of Mus musculus with 5 samples.

Results

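The genes described here are those of the mouse major histocompatibility complex (MHC) and its antigen presentation machinery: every gene with a symbol starting in H2-, plus B2m, Tap1, Tap2, Tapbp, Ciita and Cd74. They were chosen by name, through the RefSeq identifier attached to each array probe, and 37 such genes on 56 probes were found among 17016 named genes on the array. Of these, 33 could be tested, among 14912 tested genes in all. The annotation holds 57 names that meet the definition, and 20 of them, among them Nlrc5, H2-Ea and H2-Eb1, had no matching probe and were not analysed here.

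The samples were 5 livers of male C57BL/6N mice that had received an ethanol diet for 8 weeks and 3 ethanol binges of 5 g/kg. Each liver's RNA, in the red dye Cy5, was hybridised to a two-colour oligonucleotide array against purchased Ambion Mouse Assorted Total RNA in the green dye Cy3, a commercial RNA labelled with the same strain and with liver as its tissue. Every ratio below is therefore liver over this one reference RNA, on a log2 scale, with the dyes in the same orientation on all 5 arrays. A mouse on a control diet is not analysed here, so no ratio is an ethanol effect, and a dye effect cannot be told apart from a difference between the RNAs. The labels do not say whether the 5 livers came from separate animals. The p-value of a ratio sets its mean against the spread between these 5 samples.

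MHC class I molecules display peptides made inside the cell to CD8+ T cells and are assembled from a heavy chain and the light chain beta-2-microglobulin (B2m), with peptides brought into the endoplasmic reticulum by the Tap1 and Tap2 transporter. MHC class II molecules display peptides taken up from outside to CD4+ T cells, and are guided to endosomes by the invariant chain Cd74, where H2-DM exchanges the invariant chain remnant for peptide. Class I is made by nearly all nucleated cells, whereas in the liver class II is made mainly by Kupffer cells, dendritic cells, B cells and sinusoidal endothelium. In C57BL/6 mice the classical class II molecule is I-A, the pair of H2-Aa and H2-Ab1, since this strain does not make the I-E alpha chain. Less RNA from such a gene in a whole liver can mean fewer cells of a type or less RNA in each cell, and these cannot be told apart in bulk RNA. A ratio below 0 can also mean more of that RNA in the reference, which a ratio cannot tell apart from less in the liver.

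Promoters of both classes are shown here because the class comparison is the main result. Sequences are from RefSeq on build GRCm38.p6, and cover the 250 bases before each transcription start, read 5′ to 3′ on the gene's strand; 24 of 32 tested members looked up had such a window. The first pair, of classical class I heavy chains, shows in capitals the letters GGGATTCCC of the class I enhancer A, known to bind NF-kappa-B family proteins. H2-K1 lies at chr17:34000348-34000597 on the minus strand and H2-D1 at chr17:35262844-35263093 on the plus strand.
H2-K1: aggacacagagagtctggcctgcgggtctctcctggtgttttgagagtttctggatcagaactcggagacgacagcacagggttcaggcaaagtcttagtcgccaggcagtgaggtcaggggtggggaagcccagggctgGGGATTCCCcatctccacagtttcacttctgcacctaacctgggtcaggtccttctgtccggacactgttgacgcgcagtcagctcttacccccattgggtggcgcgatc
H2-D1: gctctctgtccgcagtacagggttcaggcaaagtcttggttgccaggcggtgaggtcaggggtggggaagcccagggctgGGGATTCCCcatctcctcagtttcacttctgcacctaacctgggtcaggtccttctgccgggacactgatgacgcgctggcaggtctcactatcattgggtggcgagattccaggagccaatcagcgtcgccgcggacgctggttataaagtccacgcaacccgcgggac

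Read on both strands, that motif was in 0.301% of 32851 windows of this length, and among the members in 3 of 14 class I heavy chain genes with a window, H2-K1, H2-D1 and H2-Q7, and in 0 of 6 class II genes. The next promoters are of class II genes. The X1 box, searched through its letters AGNAACNGA on both strands, is the part of class II promoters bound by the RFX complex, and it is in capitals for H2-DMb1 (chr17:34152941-34153190, plus strand) and H2-Eb2 (chr17:34325425-34325674, plus strand). For H2-Aa (chr17:34287824-34288073, minus strand), where those letters were not in the window, the capitals mark the CCAAT box, bound by NF-Y, on the opposite strand.
H2-DMb1: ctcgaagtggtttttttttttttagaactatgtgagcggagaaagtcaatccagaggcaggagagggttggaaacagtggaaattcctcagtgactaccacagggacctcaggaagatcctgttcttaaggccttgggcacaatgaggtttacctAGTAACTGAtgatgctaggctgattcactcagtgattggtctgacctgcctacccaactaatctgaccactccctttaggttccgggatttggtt
H2-Eb2: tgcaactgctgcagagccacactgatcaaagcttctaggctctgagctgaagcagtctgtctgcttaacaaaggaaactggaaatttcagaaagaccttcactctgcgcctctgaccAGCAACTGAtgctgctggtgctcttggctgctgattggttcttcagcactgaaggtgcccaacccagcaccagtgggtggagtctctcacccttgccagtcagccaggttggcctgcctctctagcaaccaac
H2-Aa: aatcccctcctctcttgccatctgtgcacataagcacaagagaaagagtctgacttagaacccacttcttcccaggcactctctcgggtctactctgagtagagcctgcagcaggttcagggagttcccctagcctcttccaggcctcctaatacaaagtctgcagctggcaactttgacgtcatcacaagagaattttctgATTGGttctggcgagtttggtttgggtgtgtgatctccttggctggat

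The X1 letters were in 4.42% of all windows and in 2 of 6 class II genes, H2-DMb1 and H2-Eb2, and 0 of 14 class I genes. CCAAT was common, in 33.8% of all windows and in 12 of 14 class I and 6 of 6 class II genes. Most windows of either class thus lacked the exact letters searched for that class and shared this box. The letters TGACG, a core of the X2 box or of cyclic AMP response elements, were in 17.8% of all windows. They were in 8 of 14 class I and 1 of 6 class II genes, the class II one being H2-Aa. Of the promoters with a class I enhancer A, that of H2-K1 belongs to a gene that was lower in liver than in the reference and those of H2-D1 and H2-Q7 to genes that did not pass the test. Of those with an X1 box, H2-DMb1 was lower. H2-Eb2 was higher on its brighter probe only, and its second probe, at -0.12, did not pass the test. A match of letters is a description and not a binding site.

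Cd74 and the I-A chains H2-Aa and H2-Ab1 held the largest mean differences among the members. Cd74 was 2.91-fold and H2-Aa 2.34-fold lower in the ethanol-fed livers than in the reference, H2-Ab1 1.84-fold and H2-DMb1, a chain of the peptide exchanger, 1.49-fold. Class I heavy chains stayed closer to 0 than these 3 genes, and none of the 19 tested differed 2-fold. The largest class I difference was that of H2-M9, 1.64-fold higher. H2-K1, 1.31-fold lower, was the classical chain that passed the test. Over all 33 tested members, 7 were above and 7 below the reference at an adjusted p below 0.05 (limma, Benjamini-Hochberg over all genes), against 14.2% of all genes above and 12.8% below. With median centring in place of loess the same split was 4 above and 7 below, and with Agilent's processed signals 6 above and 10 below. At 2-fold, Cd74 and H2-Aa were below and no member was above, where 0.416% and 0.865% of all genes were.

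**Figure D1:**
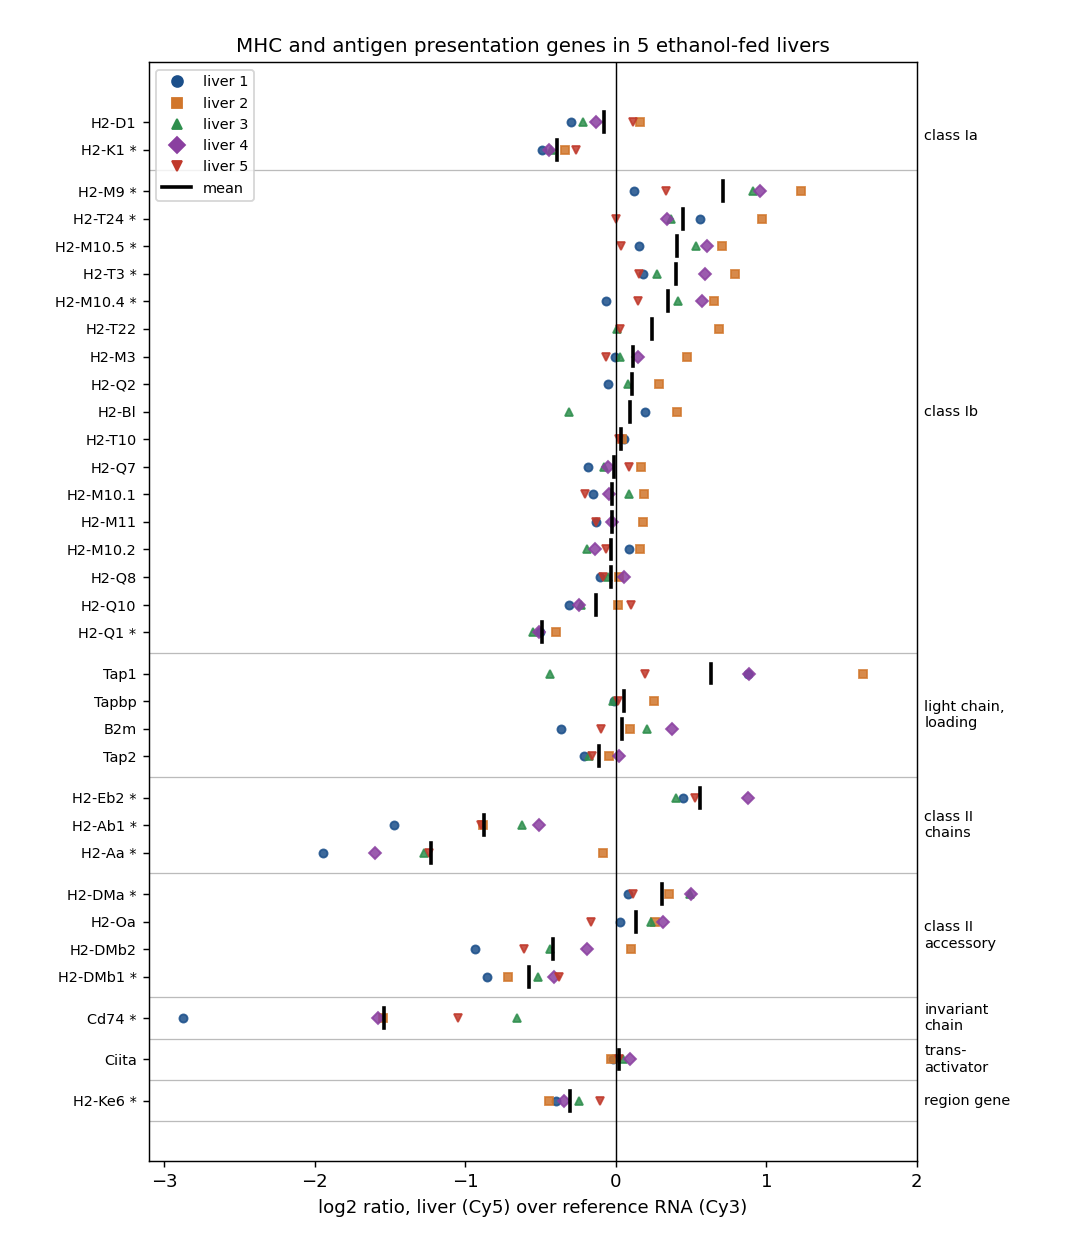
Log2 ratio of liver (Cy5) over reference RNA (Cy3) for the 33 tested genes, grouped by class, with 1 symbol per liver and a bar at the mean; an asterisk marks an adjusted p below 0.05. Cd74, H2-Aa and H2-Ab1 lie left of 0 in every liver, most class I genes lie around 0, and Tap1 runs from -0.44 in liver 3 to 1.64 in liver 2.

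Cd74, the chaperone of class II chains, had log2 ratios of -2.88, -1.55, -0.66, -1.58 and -1.05 in livers 1 to 5. All 5 were below 0, with liver 1 lowest and liver 3 nearest to the reference. The mean was -1.54 ± 0.84 (SD, n = 5; adjusted p = 0.0122), and it lay between -1.76 and -1.21 over the other processing settings and with each liver left out. The background-subtracted signal of its single probe, not normalised between the dyes, was 488 to 2026 scanner units in livers and 2771 to 3841 units in the reference.

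H2-Aa encodes the alpha chain of I-A. Its brighter probe gave -1.95, -0.09, -1.28, -1.60 and -1.24 in livers 1 to 5, with liver 2 close to the reference and the others well below it. The mean was -1.23 ± 0.70 (SD, n = 5; adjusted p = 0.0142). Without liver 4 the call was lost (mean -1.14, adjusted p = 0.0522), and without liver 2 the mean was -1.51 with an adjusted p of 0.00237; over all settings run the adjusted p lay between 0.00168 and 0.0522. The dimmer H2-Aa probe gave -1.85, -1.34, -1.05, -1.51 and -0.95. It placed liver 2 with the others, and its mean was -1.34 ± 0.36 (SD, n = 5; adjusted p over probes 0.000348), so the probes differ in liver 2 by more than elsewhere.

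H2-Ab1 encodes the I-A beta chain. It had ratios of -1.47, -0.88, -0.62, -0.51 and -0.89 in livers 1 to 5, all below the reference and lowest in liver 1. The mean was -0.88 ± 0.37 (SD, n = 5; adjusted p = 0.00321). The other probes of the gene gave means of -0.87 and -1.25, both past the test over probes (adjusted p = 0.00352 and 0.00839), and on each of the 3 probes liver 1 was lowest. Liver signals of the probe shown were 244 to 525 units and reference signals 576 to 877 units.

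H2-Eb2 is a second I-E type beta chain gene and did not follow the I-A chains. Its brighter probe gave 0.44, 0.40, 0.88 and 0.53 in livers 1, 3, 4 and 5, with no usable spot in liver 2, and its mean was 0.56 ± 0.22 (SD, n = 4; adjusted p = 0.00834). The second probe gave -0.13, 0.20, -0.26, -0.20 and -0.22, with a mean of -0.12 ± 0.19 (SD, n = 5; adjusted p over probes 0.335). The probes thus disagree in sign, and averaged they gave 0.18 with an adjusted p of 0.074, the highest over all settings, of which the lowest was 0.00273. A direction for H2-Eb2 rests on the choice of probe.

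The accessory chains H2-DM and H2-O act in endosomes: H2-DM loads peptide on class II, and H2-O restrains H2-DM, mainly in B cells. H2-DMb1 had ratios of -0.86, -0.72, -0.51, -0.41 and -0.38 in livers 1 to 5, all below 0, with a mean of -0.58 ± 0.21 (SD, n = 5; adjusted p = 0.00309). Its probe was dim, with 43.2 to 107 units in livers and 109 to 192 units in the reference, and Agilent's processed signals, which carry no added offset, gave -1.05 in place of -0.58. The partner chain H2-DMa differed in sign. It had 0.08, 0.35, 0.49, 0.50 and 0.12 in livers 1 to 5, with a mean of 0.31 ± 0.20 (SD, n = 5; adjusted p = 0.0343), and its call was lost with median centring (0.18, adjusted p = 0.361) and without liver 2, 3 or 4 (adjusted p = 0.0744, 0.108 and 0.124, in a range of 0.0149 to 0.361 over all settings).

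H2-DMb2, the other H2-DM beta chain, had -0.94, 0.10, -0.44, -0.19 and -0.61 in livers 1 to 5, so that liver 2 was on the other side of 0. Its mean of -0.42 ± 0.40 (SD, n = 5) just missed the threshold (adjusted p = 0.0527). It passed without liver 2 (-0.54, adjusted p = 0.0214) and with Agilent's processed signals (-0.81, adjusted p = 0.0279). Without liver 5 the brightest probe changed, to one that passed (-0.56, adjusted p = 0.0056), while the probe shown gave -0.37 (adjusted p = 0.141), these being the lowest and the highest adjusted p over all settings. That second probe gave -0.52 ± 0.14 over all 5 livers (SD, n = 5; adjusted p over probes 0.00155). H2-Oa did not pass, at 0.14 ± 0.20 (SD, n = 5; adjusted p = 0.278), and its dimmer probe gave -0.33 ± 0.13 (SD, n = 5; adjusted p over probes 0.00574). H2-Ob was not well above background in either channel on any array and has no ratio.

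**Figure D2:**
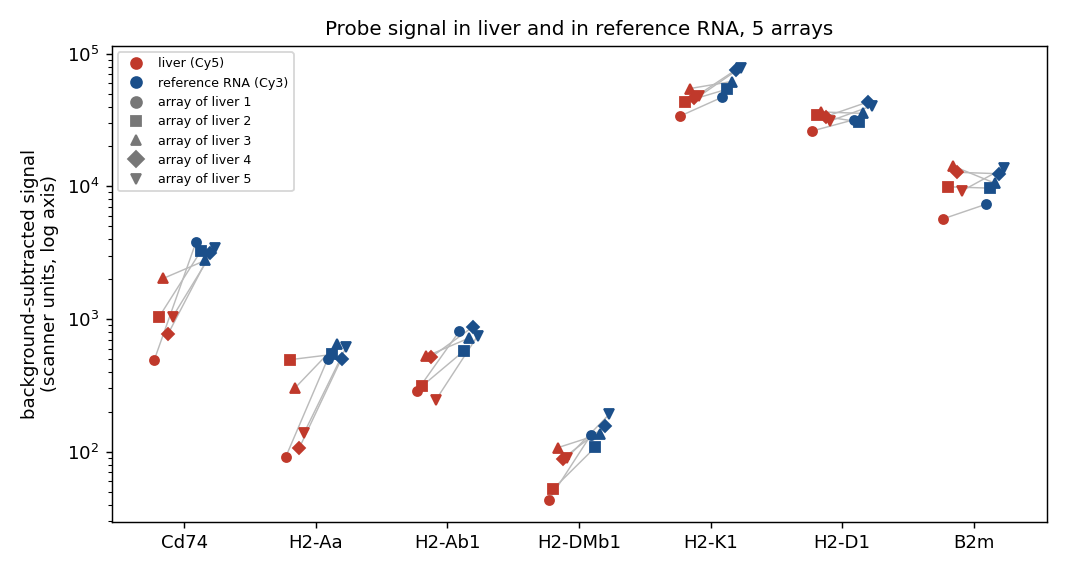
Background-subtracted signal in scanner units (log axis) of 7 genes' probes in liver (red) and in reference RNA (blue) on 5 arrays, a line joining the channels of 1 array. On each array the liver signal is below the reference signal for Cd74, H2-Aa, H2-Ab1, H2-DMb1 and H2-K1, while for H2-D1 and B2m it lies on both sides. These signals are not normalised between the dyes. Signals of different genes' probes are not comparable with each other.

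Ciita, the transactivator on which class II and Cd74 transcription depends, did not pass the test. Its ratios were -0.02, -0.03, 0.05, 0.09 and 0.02 in livers 1 to 5 (mean 0.02 ± 0.05, SD, n = 5; adjusted p = 0.786). The probe was dim, at 51.3 to 162 units in livers and 53.3 to 104 units in the reference, and the offset of 50 units that was added to both channels draws such ratios towards 0.

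Among the classical class I heavy chains, which present peptides to CD8+ T cells, H2-K1 was lower in all 5 livers. Its ratios were -0.49, -0.34, -0.43, -0.44 and -0.26, a mean of -0.39 ± 0.09 (SD, n = 5; adjusted p = 0.00578), and its SD was larger than that of only 8.68% of genes. A second bright H2-K1 probe gave -0.44 ± 0.14, and a dimmer one gave -0.00 ± 0.25 (SD, n = 5 each; adjusted p over probes 0.00342 and 0.996). H2-D1 lay on both sides of the reference, at -0.30, 0.16, -0.22, -0.13 and 0.11 in livers 1 to 5. Its mean of -0.08 ± 0.20 (SD, n = 5) did not pass the test (adjusted p = 0.551), though with Agilent's processed signals it was -0.25 with an adjusted p of 0.0416 (0.0416 to 0.959 over all settings).

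Class I sequences are close to each other, so a probe for one heavy chain can bind the RNA of another, and the values below are of probes rather than of single genes. H2-Q10, a secreted class I molecule made mainly by the liver, had -0.31, 0.02, -0.23, -0.25 and 0.10 in livers 1 to 5 on its brightest probe. These differed from the H2-D1 values by 0.01 to 0.14 in every liver. The mean was -0.13 ± 0.18 (SD, n = 5; adjusted p = 0.263), but it was -0.40 with Agilent's processed signals and with the deposited ratios, and -0.27 with the mean of its probes, all past the test (adjusted p = 0.0071, 0.00763 and 0.0387; 0.0071 to 0.52 over all settings). The 2 further H2-Q10 probes gave -0.30 ± 0.11 and -0.37 ± 0.13 (SD, n = 5 each; adjusted p over probes 0.0136 and 0.00675). Whether any of these probes read a relative's RNA was not tested.

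Of the 17 tested nonclassical class I genes, 5 were above and 1 was below the reference, where 14.2% and 12.8% of all genes were. The one below was H2-Q1, at -0.51, -0.40, -0.55 and -0.51 in livers 1 to 4, with no usable spot in liver 5 (mean -0.49 ± 0.07, SD, n = 4; adjusted p = 0.0047). The largest ratio was that of H2-M9, a member of the H2-M family whose M1, M9, M10 and M11 genes are known from vomeronasal neurons. It had 0.12, 1.23, 0.91, 0.96 and 0.34 in livers 1 to 5, above 0 in each and farthest in liver 2, with a mean of 0.71 ± 0.46 (SD, n = 5; adjusted p = 0.0135).

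H2-M10.5 (0.15, 0.71, 0.53, 0.60 and 0.04 in livers 1 to 5) and H2-M10.4 (-0.07, 0.65, 0.41, 0.58 and 0.15) were highest in livers 2, 4 and 3, in that order, as H2-M9 was. Their means were 0.41 ± 0.29 and 0.34 ± 0.30 (SD, n = 5 each; adjusted p = 0.0242 and 0.0436). H2-T3, the thymus leukaemia antigen known from intestinal epithelium, had 0.18, 0.79, 0.27, 0.59 and 0.15, with a mean of 0.40 ± 0.28 (SD, n = 5; adjusted p = 0.0272). H2-T24 had 0.56, 0.97, 0.37, 0.34 and 0.00, with a mean of 0.45 ± 0.35 (SD, n = 5; adjusted p = 0.0312), but its second probe gave -0.22 ± 0.37 (SD, n = 5; adjusted p over probes 0.232).

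The 5 calls above the reference depended on single livers and on the processing. Without liver 4 none of the 5 passed and 0 class I genes were above the reference, and without liver 2, the highest liver for each of them, only H2-M9 did. Without liver 3 the count was 2, and with median centring it was 3. H2-M10.4 kept its call in 6 of 13 settings, missing it with Agilent's processed signals (adjusted p = 0.109), with the deposited ratios (0.113) and without trend and robust prior (0.0522). H2-T24 missed it without liver 1 (adjusted p = 0.0742) and with the mean of its probes, where it was 0.11 (adjusted p = 0.492). All 5 means stayed above 0 in every setting run.

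The other nonclassical genes did not pass the test. Their mean ratios ran from -0.13 for H2-Q10 to 0.24 for H2-T22, a gene whose product is a ligand of gamma-delta T cells, and H2-M3, which presents N-formylated bacterial peptides, averaged 0.12 ± 0.21 (SD, n = 5; adjusted p = 0.369). H2-T22 had 3 usable spots, and passed with outlier spots kept (0.35, adjusted p = 0.0485) and with the deposited ratios (0.39, adjusted p = 0.0363; 0.0363 to 0.963 over all settings). H2-Q7, which encodes the Qa-2 antigen, was at -0.01 ± 0.14 (SD, n = 5; adjusted p = 0.923). H2-T23, which encodes Qa-1, the ligand of the NKG2A receptor, gave usable spots in only 2 livers, 0.23 in liver 2 and 0.13 in liver 3, and was not tested. H2-M1 and H2-M10.6 were too dim to test.

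Among the 14 members with more than 1 tested probe, 7 had probes of opposite sign. Such a split was seen for H2-Bl, a transcribed pseudogene, H2-D1, H2-Eb2, H2-M3, H2-Oa, H2-T24 and Tapbp. For H2-Bl the brightest probe gave 0.10 ± 0.37 from livers 1 to 3 only (SD, n = 3; adjusted p = 0.661), and the other probes -0.28 and -0.25 from all 5 livers (adjusted p over probes 0.0161 and 0.021). The probes of B2m agreed closely, at 0.04 each.

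Set against each other as means over genes, class I was higher than class II in every liver. Up to 19 class I heavy chain genes entered a liver's mean, which was -0.05, 0.34, 0.04, 0.11 and 0.01 in livers 1 to 5. Up to 7 class II genes gave -0.67, -0.16, -0.25, -0.15 and -0.38. A gene without a usable spot in a liver is left out there, so the livers are averaged over unlike sets of genes. The class II value of liver 2 lacks H2-Eb2. Class I minus class II was 0.61, 0.50, 0.28, 0.26 and 0.39, a mean of 0.41 ± 0.15 (SD, n = 5). The I-A chains H2-Aa (-1.23) and H2-Ab1 (-0.88) were the lowest class II genes. The other class II genes lay on both sides of 0. H2-DMb1 was at -0.58, H2-DMb2 at -0.42, H2-Oa at 0.14, H2-DMa at 0.31 and H2-Eb2 at 0.56. The class difference was not computed without the I-A pair, so it does not describe class II genes as a whole. No test is given, since the genes were chosen with earlier results of these data known and genes of a class are not replicates.

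The median of the genes' mean ratios was 0.04 for class I and -0.42 for class II, against -0.02 over all tested genes. With medians in place of means within each liver, the difference was 0.80, 0.18, 0.45, 0.17 and 0.40. Restricted to classical chains, H2-K1 and H2-D1 against H2-Aa, H2-Ab1 and H2-Eb2, the difference of means averaged 0.35, and with B2m, Tap1, Tap2 and Tapbp added to class I and Cd74 to class II it averaged 0.58. Over all tested genes, 12.8% were below the reference and 14.2% above. Of the class II genes, 3 were below, 2 above and 2 on neither side of the threshold. Of the class I genes 2 were below, a share close to that of all genes, 5 above and 12 on neither side. The class means hide this: H2-DMa, and H2-Eb2 on its brighter probe only, lay above most class I genes.

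**Figure D3:**
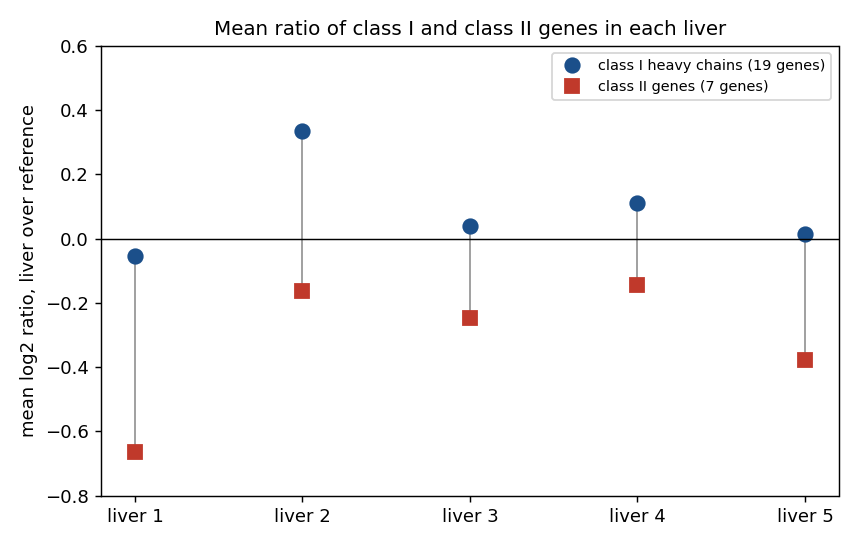
Mean log2 ratio of liver over reference in each of the 5 livers, for 19 class I heavy chain genes (circles) and 7 class II genes (squares). Genes without a value in a liver are left out of its mean. The line is the difference. Class I lies above class II in each liver, by 0.26 (liver 4) to 0.61 (liver 1).

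The class I light chain and the loading machinery showed no call in 4 tested genes. B2m had -0.36, 0.10, 0.20, 0.38 and -0.09 in livers 1 to 5 and averaged 0.04 ± 0.28 (SD, n = 5; adjusted p = 0.783). Tap2 averaged -0.11 ± 0.10 (SD, n = 5; adjusted p = 0.251), and its 5 ratios, -0.21, -0.05, -0.18, 0.02 and -0.16, lay close together. Tapbp (tapasin), which holds empty class I at the transporter, had -0.01, 0.25, -0.02 and 0.01 in livers 1, 2, 3 and 5 (mean 0.06 ± 0.13, SD, n = 4; adjusted p = 0.646).

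Tap1 varied most of the 4. It had 0.88, 1.64, -0.44, 0.88 and 0.19 in livers 1 to 5, so that liver 2 was highest and liver 3 lay below the reference. The mean was 0.63 ± 0.79 (SD, n = 5; adjusted p = 0.137), and without liver 3 it was 0.90 and passed (adjusted p = 0.0283, in a range of 0.0283 to 0.315 over all settings). Its partner Tap2 did not share the pattern: Tap1 minus Tap2 was 1.09, 1.69, -0.26, 0.86 and 0.35 in livers 1 to 5.

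Psmb9, an immunoproteasome subunit that cuts peptides for class I, is the neighbour of Tap1 and is read from the opposite strand. Their upstream windows share 225 bases, and the Tap1 one is shown because one stretch of DNA serves both genes. It lies at chr17:34187306-34187555 on the plus strand (GRCm38.p6), with the letters TGACG, a core of cyclic AMP response elements that 17.8% of all windows hold on either strand, in capitals.
Tap1: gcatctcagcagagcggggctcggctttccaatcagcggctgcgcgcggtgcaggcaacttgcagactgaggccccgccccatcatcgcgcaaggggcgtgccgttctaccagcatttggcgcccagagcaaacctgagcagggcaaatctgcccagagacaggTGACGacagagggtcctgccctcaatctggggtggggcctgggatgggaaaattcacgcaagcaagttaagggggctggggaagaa

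Over this shared stretch the genes did not have like ratios. Psmb9 had -1.09, -0.62, -0.12, -0.03 and -0.44 in livers 1 to 5 (mean -0.46 ± 0.43, SD, n = 5; adjusted p = 0.0474), and Tap1 minus Psmb9 was 1.97, 2.26, -0.32, 0.91 and 0.63. Of the 5 immunoproteasome genes, all tested, 2 were below the reference and 0 above, where 12.8% of all genes were below and 14.2% above. Against the same background, a single call in 1 direction among the 4 to 10 tested genes of a list below is no result about that list. The other one was Psmb8, at -0.76, -0.43, -0.41, -0.31 and -0.68 (mean -0.52 ± 0.19, SD, n = 5; adjusted p = 0.00486). The others did not pass, among them Psmb10 at -0.15 and Psme1 at -0.07, and the list's median was -0.17 against -0.02 over all genes.

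Mr1, a class I-like gene outside the H2 names that presents vitamin B metabolites to MAIT cells, had 0.85, 1.70, -0.39, 0.94 and 0.12 in livers 1 to 5. In each liver it lay within 0.07 of Tap1. Like Tap1 it did not pass the test, at 0.64 ± 0.80 (SD, n = 5; adjusted p = 0.138). Of the 8 tested class I-like genes 1 was above the reference, Azgp1 at 0.27 ± 0.10 (SD, n = 5; adjusted p = 0.021), and 1 below, Fcgrt, the neonatal Fc receptor, at -0.41 ± 0.21 in livers 1, 2 and 4, the others having no usable spot (SD, n = 3; adjusted p = 0.0396). Their median was 0.09.

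**Figure D4:**
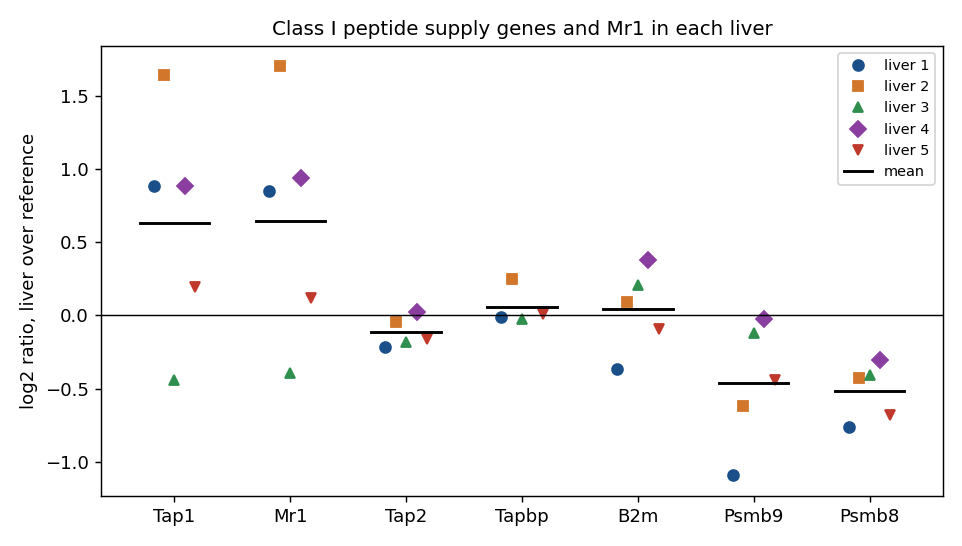
Log2 ratio of liver over reference in each of 5 livers for Tap1, Mr1, Tap2, Tapbp, B2m, Psmb9 and Psmb8, with a line at the mean. Tap1 and Mr1 have nearly the same 5 values, from about -0.4 in liver 3 to 1.64 and 1.70 in liver 2, while Psmb9 is lowest in liver 1, at -1.09.

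The spread between livers was widest for Cd74, whose SD exceeded that of 99.2% of genes, for Tap1 (99.0%) and for H2-Aa (98.4%), while the median SD over all genes was 0.19. Against genes of like brightness, 0 of the 12014 genes that could be compared passed an F test of the spread (limma prior variance, Benjamini-Hochberg), although 627 genes, 4 of them among the 25 members included, had an unadjusted p below 0.05. With 5 arrays a miss does not show that the livers were alike. Liver 1 was the lowest for Cd74, both I-A chains, H2-DMb1, H2-DMb2, B2m, Psmb8 and Psmb9, and liver 2 the highest for Tap1, Mr1, H2-M9, H2-T24, H2-T3, H2-M10.5 and H2-M10.4.

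H2-Ke6, an enzyme gene of the MHC region that is no MHC chain (Hsd17b8, a steroid dehydrogenase), was lower in every liver, at -0.40, -0.44, -0.24, -0.34 and -0.11 (mean -0.31 ± 0.13, SD, n = 5; adjusted p = 0.0198). It missed the threshold when liver 1 or liver 4 was removed (adjusted p = 0.0571 and 0.0721; 0.0143 to 0.0721 over all settings).

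The endosomal genes that prepare class II for peptide lay on both sides of the reference. Of 8 tested, 2 were below the reference, cathepsin S (Ctss, which trims the invariant chain) at -0.29 ± 0.21 (SD, n = 5; adjusted p = 0.0451) and the ubiquitin ligase Marchf1, which removes class II from the cell surface, at -0.39 ± 0.25 (SD, n = 5; adjusted p = 0.0202). Cathepsin L (Ctsl) was above, at 0.46 ± 0.31 (SD, n = 5; adjusted p = 0.0177). Over all genes 12.8% were below and 14.2% above, and the list's median was -0.04. None of the 3 tested genes of class I folding and trimming passed, Canx at 0.01, Tapbpl at -0.01 and Erap1 at -0.17 (limma adjusted p = 0.977, 0.957 and 0.124; none of the 3 below 0.05).

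Of the 10 genes of the interferon gamma route to MHC transcription, all tested, 1 was above and 1 below. Jak2, a kinase of the interferon gamma receptor, was at 0.41 ± 0.25 and Irf1, which acts on class I, Ciita and Psmb9 promoters, at -0.27 ± 0.19 (SD, n = 5 each; adjusted p = 0.0187 and 0.0465). The list's median was -0.16.

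Among 8 tested factors that bind MHC promoters, Creb1, which binds the X2 box, was above, at 0.13, 1.34, 1.51, 1.65 and 0.71 in livers 1 to 5 (mean 1.07 ± 0.64, SD, n = 5; adjusted p = 0.0139). Nfyc, a subunit of the CCAAT-binding NF-Y, was below, at -0.49 ± 0.26 (SD, n = 5; adjusted p = 0.0104). The RFX subunits Rfx5 and Rfxap, which class II transcription requires, did not pass, with means of 0.11 and -0.03, and the list's median was 0.04. Of 4 tested costimulation genes, Cd83, which keeps class II on the surface of antigen-presenting cells, was below, at -0.34 ± 0.26 (SD, n = 5; adjusted p = 0.0331), and Cd86 did not pass, at 0.26 ± 0.20 (SD, n = 5; adjusted p = 0.062).

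Markers of the cells that make class II were given side by side, and their part in the class II ratios was not tested. Of 9 tested Kupffer cell and macrophage markers, 5 were below the reference and 0 above, where 12.8% and 14.2% of all genes were. Those below were Lyz2 (-0.70 ± 0.28), Vsig4 (-0.68 ± 0.21), Clec4f (-0.52 ± 0.35, n = 4), Adgre1 (-0.34 ± 0.09) and Cd5l (-0.34 ± 0.20, SD, n = 5 but for Clec4f). The highest of the list, Marco (0.30 ± 0.50) and Timd4 (-0.01 ± 0.12, SD, n = 5 each), did not pass the test. The list's summed signal was 6286 to 9700 units in livers and 8192 to 13819 units in the reference, its median -0.34, and its mean ratio -0.40, -0.10, -0.49, -0.12 and -0.30 in livers 1 to 5.

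Sinusoidal endothelial markers were 4 below of 8 tested and 0 above, where 12.8% and 14.2% of all genes were. Those below were Ptprb at -0.62 ± 0.25, Stab2 at -0.43 ± 0.07, Stab1 at -0.35 ± 0.18 and Pecam1 at -0.34 ± 0.16 (SD, n = 5 each). The highest of the list, Fcgr2b at 0.16 ± 0.69 and Lyve1 at -0.23 ± 0.31 (SD, n = 5 each), did not pass the test. The median was -0.30, and the summed signal was 3593 to 5327 units in livers and 4049 to 6843 units in the reference. B cell markers were mixed: of 8 tested, Fcer2a (-0.50 ± 0.34) and Cd22 (-0.20 ± 0.04) were below and Cd79a (0.57 ± 0.43) above (SD, n = 5 each), against 12.8% and 14.2% of all genes. The median of the B cell list was -0.08, and its summed signals were 1740 to 3531 units in livers and 2280 to 4278 units in the reference. Of 5 tested dendritic cell markers, Xcr1 was above (0.55 ± 0.14, SD, n = 5; adjusted p = 0.00228) and none below, with a median of 0.19 and summed signals of 2088 to 4710 units in livers and 1587 to 3177 units in the reference.

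Of the other cells, 1 of 7 tested T and NK cell markers was above (Cd3e, 0.45 ± 0.31, SD, n = 5) and 1 of 6 neutrophil markers (Mpo, 0.46 ± 0.35, SD, n = 5), with none below, shares close to the 14.2% of all genes above the reference and so no result about these cells. The mean ratios of these lists were highest in liver 2, at 0.55 for T and NK cells and 0.64 for neutrophils, against -0.27 to 0.02 and -0.22 to 0.00 in the other livers. Liver 2 was also highest for Tap1 and for the nonclassical class I genes above the reference, and whether these go together was not tested. It was highest too for the mean ratios of the interferon gamma route (0.33), MHC promoter factors (0.25), costimulation (0.22) and endosomal genes (0.12). The same held for Kupffer cell and macrophage markers, at -0.10 in liver 2. The immunoproteasome, class I-like, and class I folding and trimming lists were highest in liver 4. The marker lists of B cells, dendritic cells, sinusoidal endothelium and hepatocytes were highest in other livers. The summed signals were 2291 to 7691 units in livers and 2570 to 5817 units in the reference for T and NK cells, and 1402 to 2409 units and 1392 to 2442 units for neutrophils.

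Hepatocyte markers, which check the tissue, were 3 above of 6 tested and 0 below, where 14.2% and 12.8% of all genes were. Those above were Alb at 1.15 ± 0.42, Apoa1 at 0.94 ± 0.29 and Trf at 0.61 ± 0.49 (SD, n = 5 each, limma adjusted p = 0.00176, 0.00128 and 0.0309). Their summed signal was 465965 to 563095 units in livers and 241218 to 360471 units in the reference. Every tested marker of these 7 lists was well above background on at least 1 array in both channels.

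**Figure D5:**
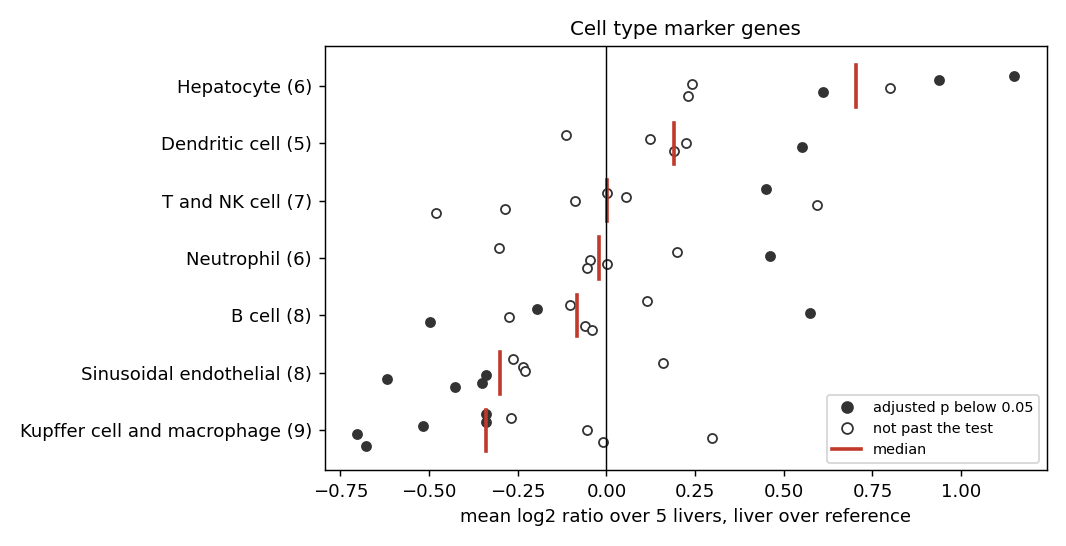
Mean log2 ratio over 5 livers of each tested marker gene of 7 cell types (number of genes in brackets); filled points passed the test and the red bar is the median. Hepatocyte markers lie above 0 with a median of 0.70, and Kupffer cell (-0.34) and sinusoidal endothelial (-0.30) medians lie below it.

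The arrays carried 45018 spots each, none saturated, of which 77.3% to 81.2% were well above background in the liver channel and 69.9% to 78.4% in the reference channel, and 2.53% to 4.18% were marked as outliers and left out. Ratios of different livers correlated across genes at r = 0.39 to 0.76. The number of arrays limits the precision of every value.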

How the data were processed

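Per the file headers, the authors scanned 5 two-colour Agilent arrays and extracted them with Feature Extraction 11.5.1.1. The deposited intensities used here are each spot's median signal and local background in both channels. The authors' deposited files also give each spot's LogRatio, which equals the log10 of red over green processed signal. Their deposited table holds log2 ratios without a stated direction: they lay within 0.001 of red over green from Agilent's processed signals for 99.7% of 40506 probes, with array medians of -0.10 to -0.03. Background was corrected here with normexp (offset 50) and dyes with loess in limma 3.58.1 (R 4.3.3), with control and outlier spots at weight 0. Probes well above background, in liver or in reference, on 3 or more arrays were tested; 24375 of 41174 probes matched a gene through RefSeq identifiers, and a gene is shown by its brightest tested probe. The mean ratio was tested against 0 (intercept, intensity trend, robust prior, two-sided) with Benjamini-Hochberg adjustment over all 14912 genes, or over all probes where a further probe is given. An exact sign permutation test of 5 livers cannot go below p = 0.0625, so none was used. The steps were tested on simulated data. Members and lists were chosen with earlier results of these data known; every member could be named, and of other lists the 2 highest, the 2 lowest and any past the test, except 1 list gene that is not reported here. Promoters are RefSeq's (GRCm38.p6); the arrays' own build is mm8, and no array coordinates are printed.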

Additional observations from a re-analysis of the deposited data

Results flagged for a closer look

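In 5 of 113 sets of liver values checked, 1 liver stood apart from the others by Dixon's criterion, where chance gives about 1 in 20. Tapbp had 0.25 in liver 2, against -0.02 to 0.01 in the other livers with a value. The second probe of H2-Eb2 had 0.20 in liver 2, against -0.26 to -0.13 in the others. Nkg7, a granule gene of cytotoxic lymphocytes, had 0.58 in liver 2, against -0.87 to -0.69. Among hepatocyte genes, Ttr had 0.61 in liver 4, against 0.07 to 0.20, and Alb had 1.87 in liver 5, against 0.78 to 1.08.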

How the results depend on the processing

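No paired analysis was possible because the samples form 1 group. A slide block could not be fitted, since each array was on its own slide, and was not run. With each liver left out in turn, the number of class I heavy chain genes above the reference ran from 0 to 4 and below from 2 to 3, of class II genes above from 1 to 2, below from 2 to 4 and at least 2-fold below from 0 to 1, and of all members above from 1 to 6, below from 5 to 9 and at least 2-fold below from 1 to 2; the lowest counts above came without liver 4, where calls over all genes also fell to 1188 above and 1010 below. Class I minus class II then ran from 0.34 to 0.45 as means and 0.29 to 0.49 as medians. With Agilent's processed signals or the deposited ratios, 4 class I genes were below, 2 class II genes were at least 2-fold below, and the difference of medians was 0.72 or 0.70. With median centring, 3 class I, 1 class II and 4 of all genes were above; with the mean of a gene's probes, 1 class II gene was above; with loading genes and Cd74 added, the difference of means was 0.58. H2-Bl turned from 0.10 to -0.28, -0.33 and -0.28 without liver 1, 2 or 3, since its bright probe then had too few values and another was shown. H2-DMb2 without liver 5 gave -0.37 with its probe kept, an alternative chosen after seeing the data, against -0.56 with the probe then brightest. Cd74, H2-Ab1, H2-DMb1, H2-K1 and H2-Q1 stayed below the reference and past the test in all 13 settings planned, and the spread test gave 0 members in every setting run. Dim probes such as those of H2-DMb1 and Ciita are limited by the offset and by signal over background.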
